A study of Mus musculus with 4 samples.

Results

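Fas, death receptor and caspase genes were followed in cardiac mesenchymal progenitors (CMPs), cells of the adult mouse heart that carry the surface antigen Sca-1 and can take on other mesenchymal fates. The genes were those whose name in the array files is Fas, Tnfrsf10b, Tnfsf10, Casp1, Casp4, Casp8, Casp12 or Ripk3. They were 8 genes with 9 probes, of 24541 named genes measured. RNA came from CMPs of C57BL/6 mice in 4 conditions, with 1 microarray each. The CMP control was untreated and labelled day 0, and OSKM-CMPs at day 4, day 6 and day 8 had been transduced with Oct4, Sox2, Klf4 and c-Myc on Sendai virus, an RNA virus that stays in the cytoplasm. The transduced cells were moved from growth medium with bFGF into reprogramming medium at day 0. By the methods, CMPs came from atria and were enriched on a density gradient rather than cloned, and the number of mice per array was not given. There was no later untreated control, so time, medium, virus and factors cannot be told apart. No condition had a replicate, so no test between conditions was possible. Each error below is 1 SD of the scanner software's error model and covers measurement within arrays only.

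Death receptors are proteins of the cell surface with a death domain on the inner side. When a ligand binds, they gather the adaptor FADD and caspase 8, a protease that activates the caspases that carry out cell death and cleaves the BH3 protein BID. Fas binds Fas ligand, and Tnfrsf10b, the mouse TRAIL receptor, binds TRAIL, the product of Tnfsf10. Where caspase 8 is held back, RIPK1 and RIPK3 can start necroptosis, in which MLKL opens the plasma membrane. Caspases 1 and 4 serve inflammation: caspase 1 matures interleukins 1 beta and 18, caspase 4 of the mouse (also named caspase 11) senses bacterial lipopolysaccharide, and both cleave gasdermin D.

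Each array value of a gene is the signal of 1 or a few probes of 60 bases. The start of the probe is shown for the pair of genes that changed by 2-fold or more, and for both Casp4 probes, because these overlap by 55 bases and read nearly the same stretch of RNA. Each line gives the leading 30 bases, 5′ to 3′.
Tnfsf10 probe: gggaaatgttaaactttgtaaactctgaaa
Casp1 probe: ctatgctgagaatcgtgccaataagaagcc
Casp4 probe, upstream: ccagcctaagcaacacagtgggattctgtt
Casp4 probe, downstream: ctaagcaacacagtgggattctgttccata
By the array files, which use mm9, the Tnfsf10 probe lies at chr3:27238508-27238567. The Fas probe lies at chr19:34402164-34402223, the Casp8 probe at chr1:58901601-58901660, the Ripk3 probe at chr14:56403949-56404008 on the minus strand and the Tnfrsf10b probe at chr14:70184141-70184200. Casp1, Casp4 and Casp12 are neighbours on chromosome 9. The Casp1 probe lies at chr9:5307206-5307265, the Casp4 probes at chr9:5336658-5336717 and chr9:5336663-5336722 and the Casp12 probe at chr9:5372975-5373034. RefSeq names no other gene between them. Exon or UTR was not assigned, since no annotation of mm9 was used here.

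The promoters of 7 of the genes were in the RefSeq table for GRCm38.p6, which holds 250 bases before and 50 bases after each start site, and these were searched on both strands for 3 motifs. The letters TTCNNNGAA, the palindromic core of a STAT site, were in 8.30% of all 32851 promoters, and GAAANNGAA, the core of an interferon response element, in 8.56%. Counted from the start site, the Fas promoter held TTCNNNGAA from position -93, and the Casp12 promoter held it from positions -102 and -36. All 3 matches had the same letters and stand in capitals in these stretches.
Fas, chr19:34290536-34290604, plus strand: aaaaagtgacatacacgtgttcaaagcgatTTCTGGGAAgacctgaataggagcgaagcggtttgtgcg
Casp12, chr9:5345344-5345478, plus strand: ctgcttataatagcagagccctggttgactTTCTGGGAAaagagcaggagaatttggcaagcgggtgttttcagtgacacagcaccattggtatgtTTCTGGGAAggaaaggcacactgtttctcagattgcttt
The only other match was GAAANNGAA in Ripk3, from position 15. No p53 site of the decamer form, which was in 8.36% of all promoters, was found in these 7. The promoter of Tnfsf10 held none of the 3 motifs. A match describes letters and says nothing of binding.

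Of the 8 genes, Tnfsf10 rose and Casp1 fell by at least 2-fold at day 8, and the other 6 stayed within 2-fold of the control on all 3 days. Over all measured genes, a rise of 2-fold or more from control was found in 11.1% on the day 4 array, 12.0% on the day 6 array and 14.3% on the day 8 array, and such a fall in 8.68%, 10.8% and 10.5%. Of the 8 genes, 1 rose on each day, and 1, 0 and 1 fell in the same order, so neither count stands apart from the rest of the array. The median change of the 8 genes at day 8 was -0.26 (log2), beside -0.01 for all genes. At day 8, 3 genes were higher and 5 were lower than the control. By a looser rule chosen after the values were seen, a change of more than 2 error SDs, 6 of the 8 genes had changed at day 8, beside 50.9% of all genes. The scale of the arrays bears on all of these counts: of all genes past 2-fold at day 8, 57.6% had risen, but 41.2% where each array was scaled to its median, which put the median change of all genes at -0.28.

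**Figure D1:**
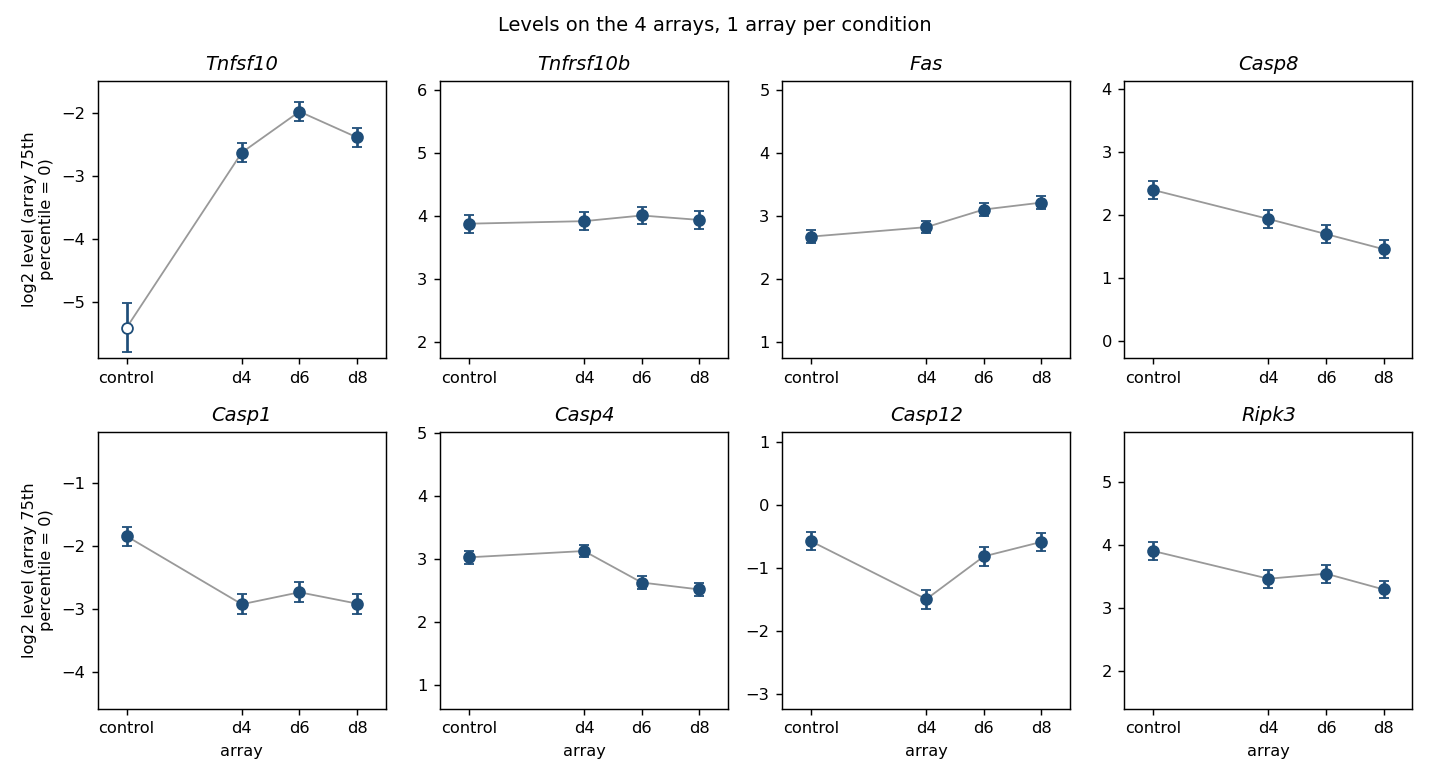
Level of each gene on the 4 arrays (log2 of the signal, with the array's 75th percentile at 0), with 1 array per condition. Bars are 1 SD of the error model, the open point was not well above background, and every panel spans the same range of log2 units; levels are comparable within a panel and not between panels. Tnfsf10 rises from -5.40 to -2.62 at day 4 and is at -1.97 and -2.38 after it, Casp1 falls from -1.84 to -2.92, and Tnfrsf10b keeps to 3.88 to 4.01.

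Tnfsf10, which encodes TRAIL, had by far the largest change. Its processed signal was 9.22 in the CMP control and then 63.2, 103 and 79.0 on the arrays of day 4, day 6 and day 8. The control value was not well above background and the other 3 were. Set against the dimmest signal that was well above background on the control array, Tnfsf10 was at least 6.59-fold, at least 10.3-fold and at least 7.78-fold higher on the 3 later days. The rise was in place at day 4, and the later levels differed from each other by less: day 6 minus day 4 was 0.65 ± 0.21, and day 8 minus day 6 was -0.40 ± 0.21 (log2). The probe was dim throughout, with its highest level, on day 6, at -1.97 relative to the array's 75th percentile (log2). With normexp background correction, which lifts dim signals, the day 8 change was 0.94 and no longer reached 2-fold. Its offset of 50 was near the size of these signals, and an offset of that size by itself shrinks such changes.

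Tnfrsf10b, the receptor that signals death on binding TRAIL, kept nearly the same level on all 4 arrays. Its level was 3.88 in the control and 3.92, 4.01 and 3.94 on the later arrays in order of day (log2). The day 8 change was 0.06 ± 0.20, within the error, and it turned to -0.21 on the scale of the array median. The receptors that bind TRAIL without signalling death went another way. Tnfrsf11b (osteoprotegerin, a soluble decoy) changed by -1.77 ± 0.20 at day 8, and the mouse decoy receptors Tnfrsf22 and Tnfrsf23 by -1.38 ± 0.15 and -2.02 ± 0.17. All 3 decoys thus fell by more than 2-fold at day 8, beside 10.5% of all genes. At day 4, 2 of them had, and Tnfrsf22 was at -0.83 ± 0.15. The day 8 falls held under each other scaling, background correction and filter tried, several of which could hardly move values above background. The 3 decoys were grouped by role after their values were seen.

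Fas, the receptor for Fas ligand, was higher on each later array. Its level, from 2 spots of 1 probe, was 2.67 in the control, and at day 4, day 6 and day 8 it was 2.82, 3.10 and 3.21. The changes from control were 0.15, 0.42 and 0.53, each ± 0.14, so the day 4 value lay about 1 error from the control and the day 6 and day 8 values lay farther from it. On the scale of the array median, the day 8 change was 0.27. At 1.45-fold by day 8 the change did not reach 2-fold. Fasl, its ligand, did not reach a signal well above background in any condition. The study lists a gene under the name Fas among those of lipogenesis. On the array, the Fas probe is that of the death receptor, and fatty acid synthase, an enzyme of lipogenesis, has its own probe under the name Fasn, which differed from the control by -0.27 ± 0.21, 1.03 ± 0.20 and 2.29 ± 0.20 in order of day. At day 8 the Fas probe was thus 1.45-fold and the Fasn probe 4.90-fold above the control.

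**Figure D2:**
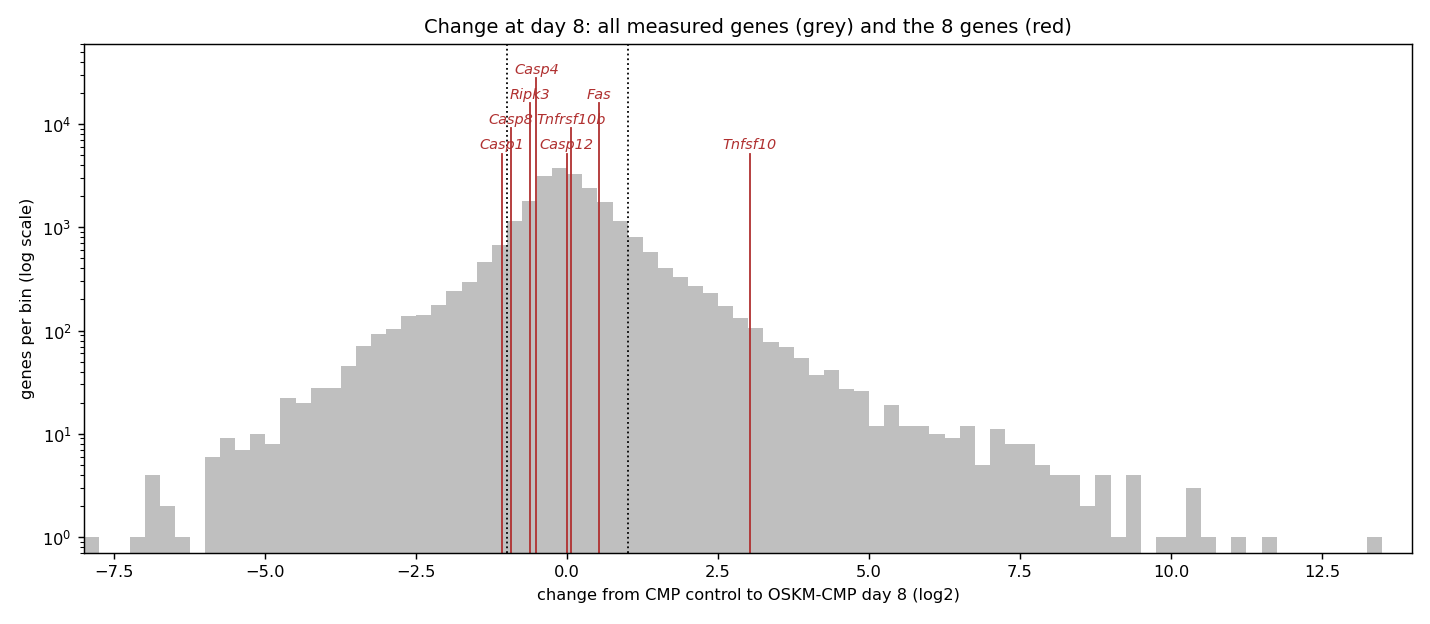
Distribution of the day 8 change of all 24541 measured genes (grey, log2, in bins of 0.25, log scale on the vertical axis), with red lines at the changes of the 8 genes and dotted lines at 2-fold. Tnfsf10, at 3.02, lies in the right tail, Casp1, at -1.08, lies just past the left dotted line, and the other 6 lie between -0.93 and 0.53.

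Casp8, the initiator caspase of the death receptors, was lower on each later array. Its level was 2.39, 1.93, 1.69 and 1.45 in the order control, day 4, day 6 and day 8. The day 8 change was -0.93 ± 0.20, just inside 2-fold, and it was -1.20 on the scale of the array median. The step from control to day 4 was -0.46, and the later steps were -0.24 each, all ± 0.20, so neighbouring later days lay within about 1 error of each other. Among the other proteins of the death complex, Fadd, the adaptor that recruits caspase 8, changed by -0.15 ± 0.20 and Ripk1 by -0.44 ± 0.20. Cflar, which encodes the caspase 8 inhibitor FLIP, changed by -1.03 ± 0.10, with 4 probes between -1.35 and -0.73, and had been lower still at day 4, at -1.45 ± 0.10.

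Casp1 was the other gene past 2-fold. Its signal was 109 in the control and 51.4, 61.4 and 54.6 at day 4, day 6 and day 8, which put every transduced array below the control. The changes were -1.08, -0.89 and -1.08 (log2), each ± 0.22, and the 3 later levels differed by 0.19 ± 0.23 at most. With normexp correction, whose offset of 50 was again near the size of the signals, the day 8 change was -0.67. With the array median it was -1.34. Casp1 was compared in its 3 log2 changes with 4071 other genes. These were well above background on every array and changed at least 2-fold at day 8. The nearest were Fzd5 and Rhbdf1, at root mean square distances of 0.015 and 0.027, and then an unnamed probe at 0.041. They were picked from all candidates by these same values. Each change of Casp1 had an error of 0.22, far larger than the distances, so the order among near genes carries no meaning.

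Casp4 and Casp12, its neighbours on chromosome 9, had other courses. Casp4 was at 3.03 in the control and at 3.13, 2.63 and 2.52 on the later arrays, so its drop came between day 4 and day 6 (-0.50 ± 0.14). Its overlapping probes gave -0.54 and -0.48 at day 8. Casp12, an inflammatory caspase found at the endoplasmic reticulum, was at -0.58 in the control and at -1.50, -0.82 and -0.59 after it. Its change at day 4 was -0.92 ± 0.21, close to 2-fold, and at day 8 it was back at the control level, with a change of -0.01 ± 0.20. Day 8 minus day 4 was 0.91 ± 0.21. On the day 4 array, where Casp12 was lowest and Casp1 was as low as at day 8, the change of Casp4 was 0.10 ± 0.14.

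Ripk3, the kinase of necroptosis, was at 3.91 in the control and at 3.47, 3.55 and 3.30 in the OSKM-CMPs. All 3 transduced arrays were below the control, with changes of -0.44, -0.35 and -0.61 (log2), each ± 0.20. Mlkl, the effector that RIPK3 phosphorylates, changed by -0.80, -0.96 and -1.04, each ± 0.20. Between neighbouring days, none of the 8 genes changed by 2-fold, beside 5.75% of all genes from day 4 to day 6 and 4.50% from day 6 to day 8.

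Around these genes, 17 of 19 listed death ligands and receptors were measured. Of these, 5 rose and 5 fell by 2-fold at day 8, beside 14.3% and 10.5% of all genes, and the median was 0.08. Apart from Tnfsf10, the largest rises well above background were Tnfrsf25 (death receptor 3), with 2.27 ± 0.21, Ngfr, the p75 neurotrophin receptor, with 2.03 ± 0.09, and Tnfrsf21 (death receptor 6), with 1.47 ± 0.21. The falls were led by the 3 TRAIL decoys. Of the 5 rises, those of Tnfsf10 and Tnf rested on control values below background. That of Tnf amounted to at least 1.54-fold, so 4 rises were past 2-fold with such values at their bound. Tnfrsf1a, the main receptor for TNF, changed by -0.77 ± 0.11, and Tnfrsf1b fell by 1.25 ± 0.20. Of 14 adaptors and inhibitors 1 rose and 2 fell (median -0.08), which does not stand apart from the shares over all genes. The rise was of Tnfaip3, an enzyme that edits ubiquitin and restrains NF-kappa B, at 1.51 ± 0.20, and the falls were of Cflar and Tnfaip8, at -1.02 ± 0.14.

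**Figure D3:**
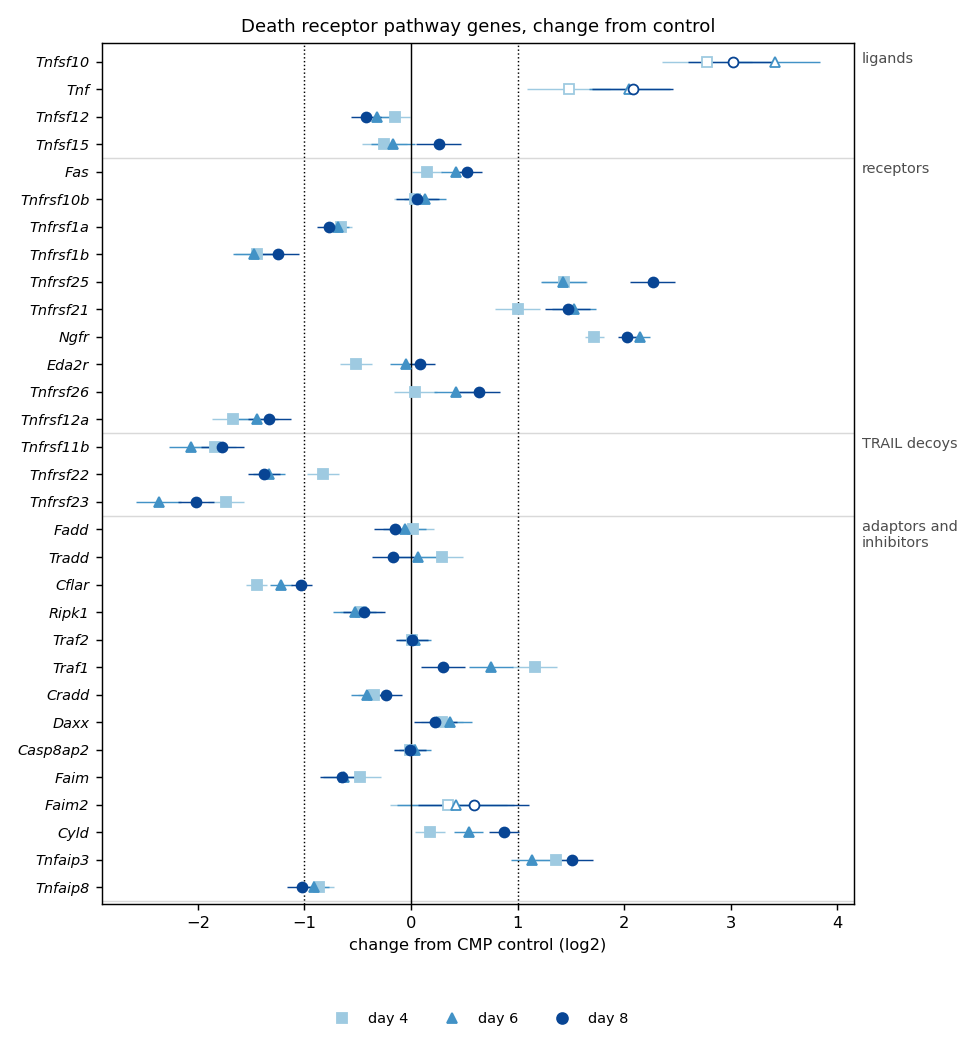
Change from the CMP control (log2) of the measured ligands, receptors, TRAIL decoys and complex proteins at day 4 (squares), day 6 (triangles) and day 8 (circles). Bars are 1 SD of the error model, open symbols mark a value not well above background in the control or on that day, and dotted lines are at 2-fold. The 3 decoys lie left of the left line at day 8, Tnfsf10 lies farthest right, and Fas and Tnfrsf10b lie between the lines.

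All 10 listed caspases were measured. At day 8, 0 of them rose and Casp1 alone fell by 2-fold, beside 14.3% and 10.5% of all genes, and the median was -0.33. The 6 caspases of apoptosis lay between -0.93 (Casp8) and 0.01 at day 8, and 5 of them were lower than the control. The median of all genes was -0.01, so being lower was common on this array. Casp9, the initiator of the mitochondrial pathway, changed by -0.15 ± 0.20, within the error. For inflammasomes and pyroptosis, 16 of 21 genes were measured, 2 rose and 2 fell, and the median was 0.11. Il18, a substrate of caspase 1, rose by 2.30 ± 0.21 and was up by 1.91 at day 4, while Il1b, the other classic substrate, stayed at background on all 4 arrays. The sensor Nlrp1a rose by 1.60 ± 0.32; mouse Nlrp1 genes are close copies that probes may not separate. Aim2, a sensor of cytosolic DNA, was at least 3.90-fold lower and below background at day 8. The adaptor Pycard (ASC) changed by 0.23 ± 0.20 and Gsdmd, the pore-forming substrate, by 0.30 ± 0.06. Of the 8 necroptosis genes, Zbp1, a sensor of unusual nucleic acids that binds RIPK3, rose by 1.83 ± 0.14, Tlr3, a receptor for double-stranded RNA, rose by 1.19 ± 0.21, and Mlkl fell, with a list median of -0.23.

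**Figure D4:**
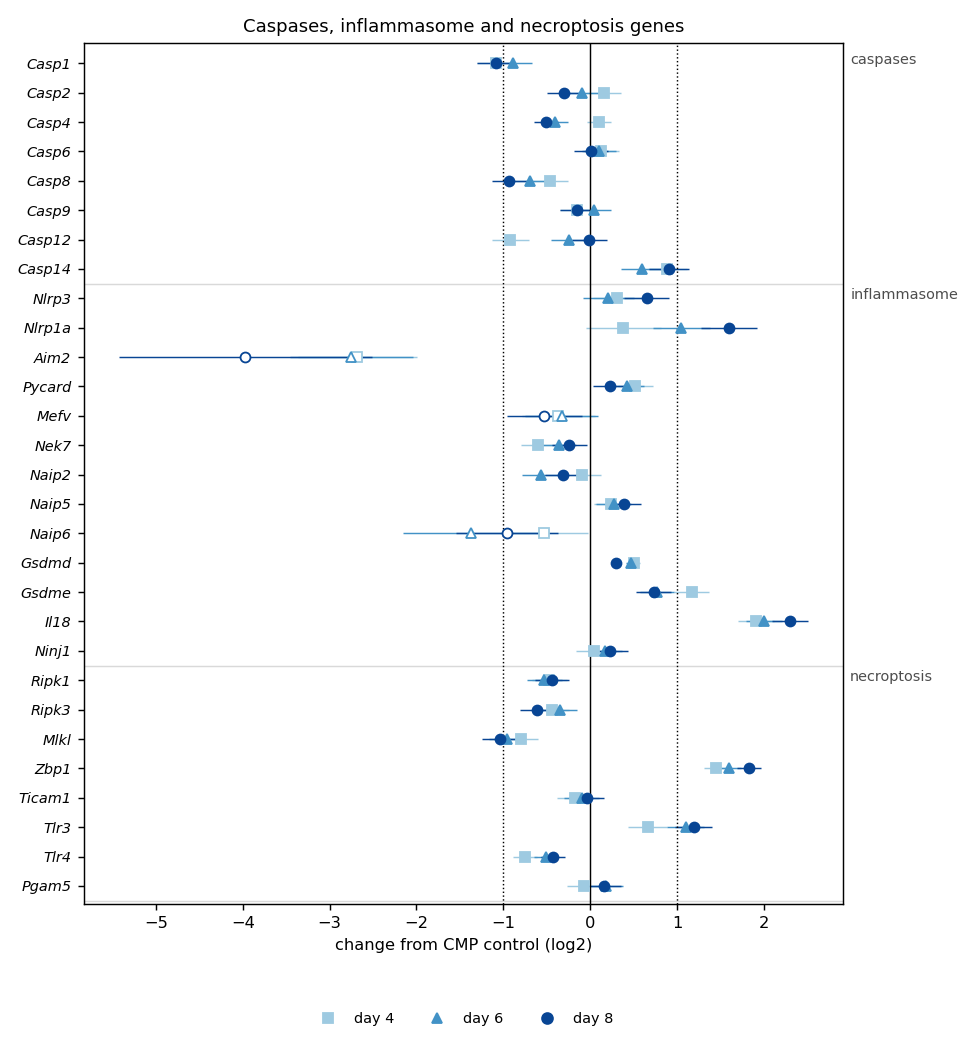
Change from the CMP control (log2) of caspases, other inflammasome genes and necroptosis genes at day 4, day 6 and day 8, with symbols, bars and lines as in the plot of ligands and receptors. Of the caspases plotted only Casp1 lies left of the left line at day 8, Il18 lies farthest right and Aim2, below background on the later arrays, farthest left.

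The BCL2 family governs the mitochondrial step of apoptosis. Of its 17 measured genes 7 rose and 3 fell at day 8, beside 14.3% and 10.5% of all genes, and the median was -0.26. With values below background at their bound, 6 rose. Divided by role after the values were seen, 6 of 8 BH3-only genes, which promote death, rose by 2-fold, while Bad and Pmaip1 were at -0.47 and -0.22. All 6 were higher under every setting tried that measured them, but normexp correction left 3 past 2-fold. Dim values at the floor left 5, and so did the brightest probe of a gene. The filter on all 4 arrays left 3 of the 6 BH3-only genes it measured. Bmf rose by 2.97 ± 0.21, and Bid, whose product caspase 8 cleaves, rose by 1.73 ± 0.20. Bcl2l11 (BIM) rose by 1.37 ± 0.49, but its probes disagreed, at 0.56 and 2.19. Of the survival genes 5 of 6 measured were lower at day 8, where the median of all genes was -0.01. Bcl2l1 (BCL-XL) fell by 1.61 ± 0.14, and Bcl2 and Mcl1 were at -0.82 ± 0.20 and -0.74 ± 0.14. Bcl2a1d was below background on the later arrays and at least 3.68-fold lower at day 8. The sixth, Bcl2l10, was below background in the control and at least 2.90-fold higher at day 8. Of the pore formers, Bok fell by 1.05 ± 0.20. Among 14 measured inhibitors of apoptosis and apoptosome genes, Birc5 (survivin), which also serves cell division, fell by 2.92 ± 0.12, 0 rose, and the median was 0.02.

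**Figure D5:**
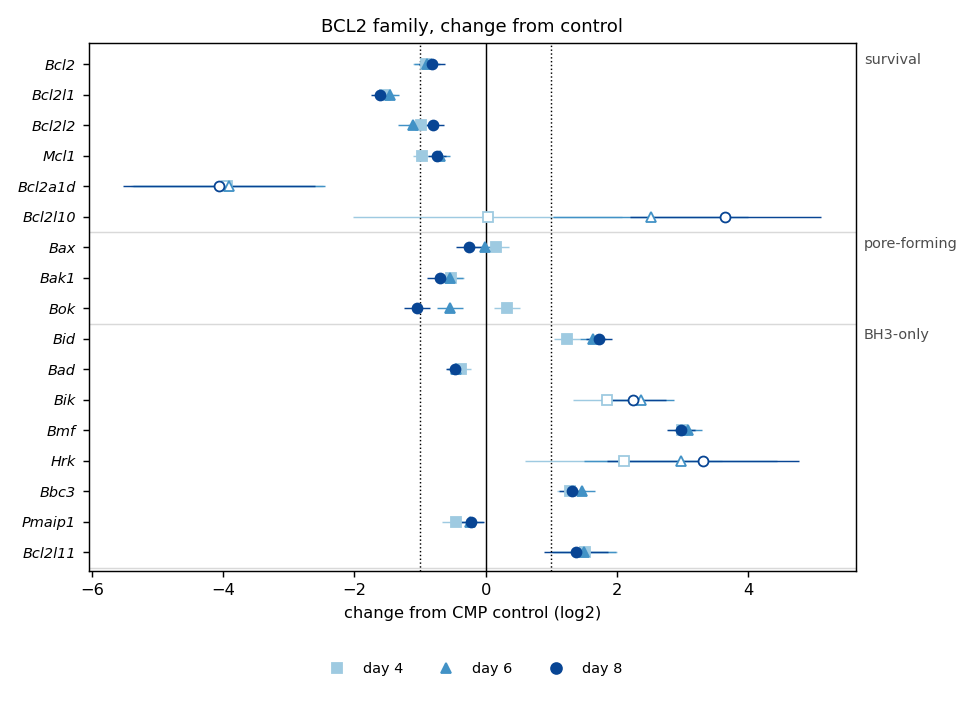
Change from the CMP control (log2) of the BCL2 family at day 4, day 6 and day 8, grouped as survival, pore-forming and BH3-only genes, with symbols, bars and lines as in the plot of ligands and receptors. Most BH3-only genes lie right of the right line and most survival genes lie left of 0. Bcl2l10, Hrk and Bik have open symbols because their control value was below background, and Bcl2a1d because its later values were.

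Genes of the interferon response and of p53, pathways known to act on Fas and Tnfsf10 in other cells, were set beside them. Of 14 interferon factors and targets 11 rose and 1 fell at day 8 (median 2.38), led by the antiviral GTPase Mx1 at 6.58 ± 0.25, Ifit1 at 3.53 ± 0.20 and Gbp2 at 3.10 ± 0.20, and the fall was of Irf8, a factor of blood cell lineages, at -3.17 ± 0.23. Of 18 p53 pathway genes 4 rose and 0 fell (median 0.46): Perp at 4.45 ± 0.20, Trp53inp1 at 1.63 ± 0.14, Sesn1 at 1.36 ± 0.20 and Bbc3 at 1.31 ± 0.20. Over all genes, 14.3% rose and 10.5% fell. The other 14 p53 pathway genes stayed within 2-fold. Among them were Cdkn1a at 0.61 ± 0.10 (probes from 0.06 to 1.42), Mdm2 at 0.42 ± 0.20 and Phlda3 at -0.49 ± 0.20. Trp53 itself was at -0.19 ± 0.14.

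Markers of other cells were read as well, with changes given at day 8, when 14.3% of all genes rose and 10.5% fell by 2-fold. In bulk RNA, fewer cells of a type and less RNA per cell cannot be told apart. Of 14 leukocyte markers, 12 were measured; 2 rose and 2 fell, and their summed level ran from 4.15 to 4.40 times the array's 75th percentile over the 4 arrays, a sum carried mostly by the brighter probes of Cd3e, Csf1r and Itgam. Laptm5 was not well above background anywhere. The median change of the leukocyte markers was 0.07. Lyz2 (lysozyme of macrophages) fell by 2.58 ± 0.25 and Tyrobp was at least 1.58-fold lower. With values below background at their bound, 1 marker fell by 2-fold. Cd68 rose by 1.56 ± 0.42 and Coro1a by 1.12 ± 0.23, while Csf1r was at -0.73 ± 0.14. Of 7 endothelial markers 5 fell, Cdh5 by at least 11.9-fold, and their summed level went from 2.03 to 1.13, 1.21 and 1.09. The 2 that stayed within 2-fold were Pecam1, at 0.10 ± 0.16, and Kdr, at -0.27 ± 0.11. On the later arrays the summed level was carried mostly by Kdr. All 7 endothelial markers were well above background in the control, and 3 were at day 8. All 8 adipocyte markers rose at day 8, with a summed level of 8.78, 48.4, 179 and 385 over the 4 arrays. On the day 4 array 6 of them rose and 1 fell, Lpl at -1.62 ± 0.14. The part of these cells in the values of the 8 genes was not tested. Of 10 mesenchymal progenitor markers, all were well above background on every array, Ly6a (Sca-1) rose by 2.69 ± 0.20, and Thy1 fell by 1.78 ± 0.20.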

How the data were processed

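Per the labels, total RNA labelled with Cy3 was hybridised to 1 Agilent mouse array per condition. The authors' deposited scanner files give a processed intensity for each of 62976 spots, made by Feature Extraction (version 10.7.3.1 in the file header, 9.5.3 in the submitters' processing notes). The deposited table of normalized values holds, for each array, the log2 processed signal shifted by a constant, as a check against the scanner values found.

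Control spots (3671 per array) and 87 to 106 outlier spots per array were left out, log2 values were averaged per probe, and the array's 75th percentile (signals of 388.5 to 411.1) was subtracted. Of 55681 probes, 31498 to 33213 per array were well above background (on at least as many of a probe's spots as not, a tie rule settled after counts were seen), and 0 spots were saturated. Probes so on at least 1 array were kept. Kept probes of 1 gene name were averaged, and a gene counted as above background if any of them was. A change of 2-fold or more was counted. The number of arrays limits the precision, and no test between conditions was made. The same averaging of probes and a 2-fold cutoff were also run on simulated arrays, apart from the counts given here. The planted changes were well past 2-fold, and the added noise was the same for dim and bright probes. The simulation thus says nothing of dim signals or of changes near 2-fold.

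The genes and lists were chosen with earlier results of these data known. Named genes were all 8; in each list, those past 2-fold if 6 or fewer, otherwise the 3 largest rises and falls above background; direct partners; and the 3 nearest in pattern, given for Casp1 alone, because candidates had to change 2-fold and the changes of Tnfsf10 are bounds. Tnf, Tnfrsf1a, Tnfrsf1b, Bad, Pmaip1, Bcl2, Mcl1, Bcl2a1d, Bcl2l10, Trp53, Cdkn1a, Mdm2, Phlda3 and the cell markers were named after their values were seen. Alternatives concerned normalization (quantile alone, or after normexp correction with an offset of 50), scale (the median of an array), source (the authors' own normalized values), dim probes (all kept, kept only if above background on 4 arrays, or raised to a floor), genes with several probes (brightest taken) and the change counted (1.5-fold, 3-fold). Motifs and promoters came from RefSeq tables for GRCm38.p6. Some genes of the lists enter the counts but are not reported here by name. A planned comparison of caspase protein sequences was not run. Python 3.11.15, numpy 2.4.6, pandas 2.3.3, R 4.3.3 and limma 3.58.1 were used.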

Additional observations from a re-analysis of the deposited data

How the results depend on the processing

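With 1 array per condition no array could be left out. No paired analysis was possible because there were no replicates to pair and no test. Of the single genes' day 8 changes under other settings, 51 moved by less than the median error of 0.20 and 12 by more. Among the called changes, 0 turned sign. All the larger moves came with the array median, normexp or quantile normalization, and the array median moved every gene. The other settings could hardly move a gene with 1 probe, so the 51 are no measure of stability. The counts of 2-fold changes rest on 2 dim or borderline genes. Tnfsf10 had no value with the filter on all 4 arrays, which left 0 rises at day 4, day 6 and day 8, and with normexp correction 0 rose at day 4 and day 8. The number that fell at day 4 was 0 with normexp and at 3-fold, and 2 with the array median and at 1.5-fold. At day 6 it was 1 with quantile normalization and with the array median, and 2 at 1.5-fold. At day 8 it was 0 with normexp and at 3-fold, 2 with the array median and 3 at 1.5-fold. Counting changes of more than 2 error SDs, an alternative chosen after seeing the data, 2 rose and 4 fell at day 8. The median of the 8 genes was -0.44 at day 4 and -0.51 at day 8 with the filter on all 4 arrays, and -0.53 at day 8 with the array median. That scale shifted all genes by -0.28 at day 8, and list medians were then -0.18 for ligands and receptors, -0.34 for adaptors, -0.59 for caspases, -0.16 for inflammasomes, -0.50 for necroptosis, -0.53 for the BCL2 family, -0.24 for apoptosis inhibitors, 2.11 for interferon genes and 0.19 for p53 genes. The median for interferon genes was 2.09 with normexp, which called 1247 rises and 1298 falls over all genes at day 8, against 3516 and 2584. The share of calls that rose was 49.0% with normexp, 51.4% with quantile normalization and 41.2% with the array median, against 57.6%. Lists were recomputed at day 8 alone. The causes were not tested.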
